A study of Mus musculus with 6 samples.

Results

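The light chain V genes are the variable gene segments of the kappa and lambda antibody light chains, named Igkv and Iglv in the mouse. A gene was taken as a member when its symbol began with Igkv or Iglv and its counts, summed over the libraries, reached 20. The rule left 82 members, 79 Igkv and 3 Iglv, of 108 Igkv or Iglv symbols in a table of 41388 genes. The members were thus selected on their counts, and their abundance is given as a description. The 26 symbols under the minimum held 222 counts in all, 0.509% of light chain V counts. The member with the fewest counts, Igkv1-133, had 29, and Igkv9-123 had 32. Just outside, Igkv4-69 and Igkv8-18 had 18 each.

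Lung RNA was sequenced from adult WT mice (C57BL/6J) and from adult KO mice of strain B6.129S7-Zpbp2 tmZuk/Mmjax, which carry a deletion of exons 1 to 3 of Zpbp2 in a C57BL/6J background. Both genotypes were kept in one colony under a light/dark cycle and lungs were taken 7 h after lights on (ZT7, Zeitgeber time). There were 3 libraries of each genotype, called WT1 to WT3 and KO1 to KO3. The deletion is carried by every cell of the animal, and the sample is whole lung, so any B cell of the tissue or of the blood left in it contributes.

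A mature B cell as a rule expresses a single light chain, made by joining a V segment to a J segment. The plasma cells that descend from it use the same V segment and make far more antibody RNA than a resting B cell. The V segments used across many B cells form the repertoire. Kappa chains are the commoner light chain in mice, and the lambda locus holds only a few V segments. In bulk RNA, fewer cells of a type and less RNA per cell cannot be told apart.

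The libraries held between 59134950 (KO3) and 71354388 (WT1) counts. Zpbp2, the deleted gene, had 20, 15 and 7 counts across the WT libraries, 1 in KO1 and 0 in the other KO libraries. The lung epithelial markers were abundant in every library and higher in each KO library than in any WT library, with Sftpc at 12110 to 12530 CPM (counts per 1000000 of the TMM-scaled library size) in WT and 18210 to 19570 CPM in KO, and Scgb1a1 at 23370 to 27470 and 32120 to 42790 CPM. Sftpb and Ager did the same, with Ager at 2036 to 2088 CPM in WT and 2768 to 2876 CPM in KO. WT3 and KO1 stood apart in squamous epithelial genes, whose 15 listed members summed to 4846 and 9259 CPM against 26.4 to 38.7 CPM in the other libraries. KO2 and KO3 stood apart in erythroid genes, at 19010 and 19750 CPM against 2403 to 5525 CPM.

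KO2 and KO3 also differed from each other by close to counting noise. Over the members, their median squared deviation was 1.62 times what counting alone gives, against 4.49 to 23.5 times in the other 14 pairs of libraries, and over other genes it was 1.83 against 4.73 to 23.4. The usage distance, the percent of light chain V counts that would have to move to another gene to make a pair of libraries equal, was 4.21% between KO2 and KO3. In the other 14 pairs it ran from 25% (WT1 and WT3) to 53.6% (WT2 and KO2), with a median of 47.8%. The mean of KO2 and KO3 was used as 1 sample, which leaves 3 WT samples and 2 KO samples. By the study's methods each library came from the lung of a separate mouse, and the titles of KO2 and KO3 carry different identifiers. Why these libraries are so alike was not tested, and p-values measure only the spread between the samples as counted here.

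**Figure D1:**
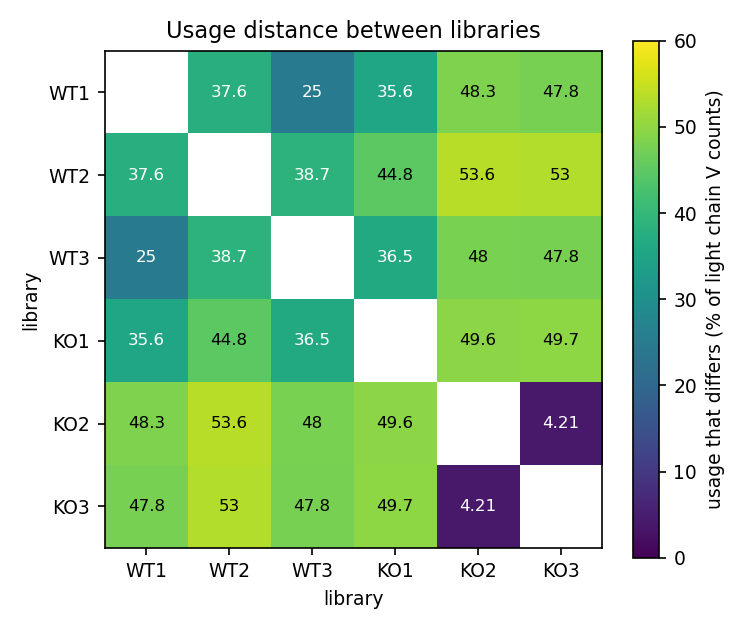
Usage distance between each pair of libraries, in percent of light chain V counts; rows and columns are libraries and the colour gives the same number as the cell. KO2 and KO3 are 4.21% apart, whereas the 14 other pairs are 25% to 53.6% apart.

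The V exons of 3 members that stood high in 1 sample are shown beside their closest relative, because a count assigned to one of them could have come from a related gene. Sequences are V exons of GENCODE M21 on GRCm38, given 5′ to 3′ on the gene's own strand, and capitals mark the bases at which the pair differs. Igkv3-4 (chr6:70672068-70672367, plus strand) and Igkv3-3 (chr6:70687225-70687524, plus strand) differ at 19 of the 300 bases shown, the first of 310 in the exon.
Igkv3-4: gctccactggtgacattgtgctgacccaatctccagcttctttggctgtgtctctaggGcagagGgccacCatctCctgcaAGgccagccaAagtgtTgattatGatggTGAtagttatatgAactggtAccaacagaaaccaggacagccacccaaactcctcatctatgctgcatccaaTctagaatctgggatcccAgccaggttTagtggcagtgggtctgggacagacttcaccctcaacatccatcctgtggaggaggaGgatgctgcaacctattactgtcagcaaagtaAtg
Igkv3-3: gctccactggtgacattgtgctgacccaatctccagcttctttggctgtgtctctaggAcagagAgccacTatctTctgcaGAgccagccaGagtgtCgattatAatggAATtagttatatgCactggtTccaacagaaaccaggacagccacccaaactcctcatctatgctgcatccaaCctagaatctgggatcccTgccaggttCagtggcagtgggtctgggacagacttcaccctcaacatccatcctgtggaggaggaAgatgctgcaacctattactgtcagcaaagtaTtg
Igkv12-41 (chr6:69858420-69858717, minus strand) and Igkv12-44 (chr6:69814631-69814928, minus strand) differ at 13 of 298 bases.
Igkv12-41: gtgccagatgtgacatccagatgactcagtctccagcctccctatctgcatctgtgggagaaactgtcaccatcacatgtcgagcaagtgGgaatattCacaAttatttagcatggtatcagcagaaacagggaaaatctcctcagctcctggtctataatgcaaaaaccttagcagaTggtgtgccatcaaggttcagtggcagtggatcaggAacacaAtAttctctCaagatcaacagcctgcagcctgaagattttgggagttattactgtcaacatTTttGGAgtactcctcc
Igkv12-44: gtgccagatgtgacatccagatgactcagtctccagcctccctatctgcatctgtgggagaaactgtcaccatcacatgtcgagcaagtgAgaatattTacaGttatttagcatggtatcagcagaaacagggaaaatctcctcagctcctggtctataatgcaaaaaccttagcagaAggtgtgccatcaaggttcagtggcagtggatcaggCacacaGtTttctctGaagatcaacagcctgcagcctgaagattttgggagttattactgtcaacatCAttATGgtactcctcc
Igkv10-95 (chr6:68680551-68680848, plus strand) and Igkv10-94 (chr6:68704508-68704805, minus strand) differ at 9 of 298 bases.
Igkv10-95: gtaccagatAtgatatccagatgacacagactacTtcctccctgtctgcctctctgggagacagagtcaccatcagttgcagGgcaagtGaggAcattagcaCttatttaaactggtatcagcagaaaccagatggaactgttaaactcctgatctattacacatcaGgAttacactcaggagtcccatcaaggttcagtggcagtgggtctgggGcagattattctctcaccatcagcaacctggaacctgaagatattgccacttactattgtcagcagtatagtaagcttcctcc
Igkv10-94: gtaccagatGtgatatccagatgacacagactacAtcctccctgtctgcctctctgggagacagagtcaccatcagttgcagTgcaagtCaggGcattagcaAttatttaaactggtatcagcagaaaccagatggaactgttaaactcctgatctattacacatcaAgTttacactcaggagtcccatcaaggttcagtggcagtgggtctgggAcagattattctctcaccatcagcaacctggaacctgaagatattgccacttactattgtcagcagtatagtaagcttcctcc

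Over the 81 members with a V exon in the annotation, identity to the closest other V gene was 62.2% to 99.0%, with a median of 95%. It was 95% or more for 41 members and 98% or more for 7. How reads that match several V genes were counted was not measured here, so the counts of members with a near-identical relative are uncertain. Of the 12 members with the highest mean usage, 5 had a relative at 95% identity or more. The members with such a relative had a median of 187 counts, and the others 312.5.

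The members took a similar part of each library in total. Their summed counts were 6669, 8346 and 7798 in WT1 to WT3 and 5545, 7860 and 7160 in KO1 to KO3. In CPM this was 91.1, 118.9 and 130.1 in WT and 88.2, 126.7 and 122.7 in KO. The genotypes overlapped, with a mean of 113.4 ± 20.1 CPM in WT (SD, n = 3) and 106.4 ± 25.8 CPM in KO (SD, n = 2). Without Igkv3-4, the member with the most counts, the values were 90.6, 116.9 and 129.6 CPM in WT and 87.8, 70.1 and 68.5 CPM in KO, and the genotypes no longer overlapped. Igkv3-4 is high in KO2 and KO3 only, so leaving it out lowers almost only those libraries. Genes high in 1 WT library, such as Igkv12-41 and Igkv3-2 in WT2, were kept. This loss of overlap is therefore no test of genotype. Between 81 and 82 members were detected in every library.

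The way those counts were spread over genes differed much more from library to library. Igkv5-39 led in WT1 with 11.4% of light chain V counts and in WT3 with 10.3%, and Igkv12-41 led in WT2 with 14.4%. The leading gene was Iglv1 in KO1, with 12.5%, and Igkv3-4 in KO2 and KO3, with 44.7% and 44.2%. No gene led in more than 2 of the 5 samples. The 10 leading genes of a library held 49.1%, 59.2% and 54.3% of its counts in WT and 60.5%, 71.7% and 71.3% in KO.

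The effective number of V genes, the number of equally used genes that would give the same Shannon diversity, was 43.1, 31.6 and 37.2 in WT1 to WT3 and 32.3, 15.3 and 15.6 in KO1 to KO3. KO1 lay among the WT libraries, and KO2 and KO3 had the lowest values. When the leading gene of each library was left out, the range became 34.5 to 46.9, with KO2 and KO3 at 40.0 and 40.1. The low diversity of KO2 and KO3 thus rested on 1 gene.

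**Figure D2:**
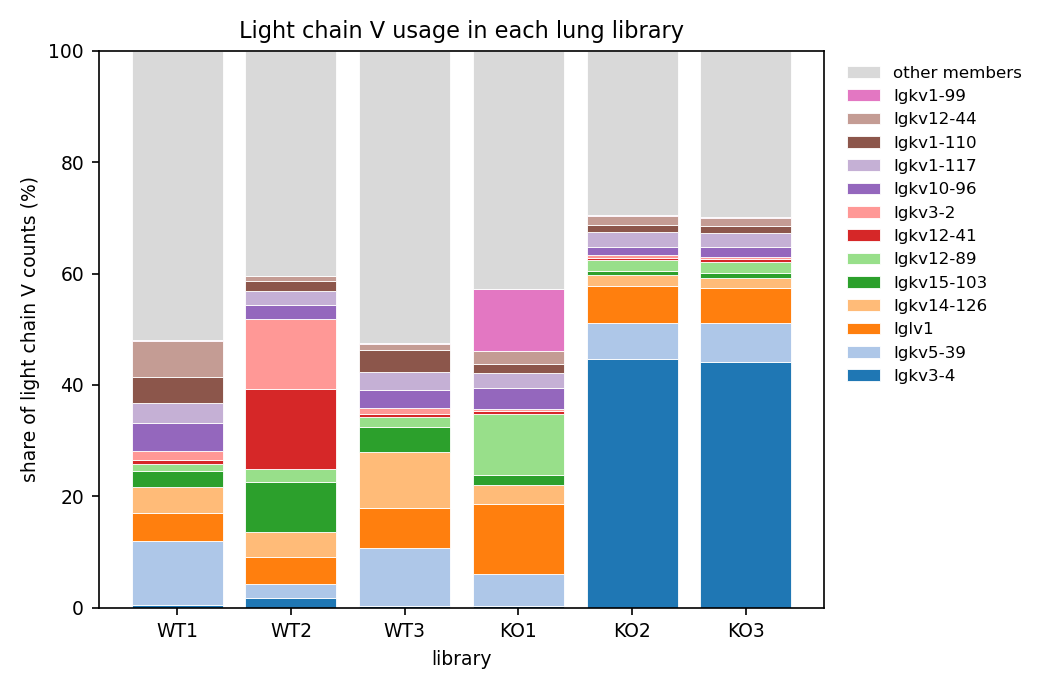
Share of light chain V counts (%) taken by 13 members with high usage, stacked for each library, with all other members in grey. Igkv3-4 fills 44.7% of KO2 and 44.2% of KO3, and no member takes over 14.4% of any other library.

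Igkv3-4 (ENSMUSG00000096715, chr6:70671788-70672377) had 36, 142 and 30 counts across WT1 to WT3 and 23 in KO1, but 3514 in KO2 and 3163 in KO3. Its share of light chain V counts was 44.7% in KO2 (95% Wilson interval 43.6% to 45.8%) and 44.2% in KO3 (43.0% to 45.3%), against 0.385% to 1.70% in WT and 0.415% in KO1. The KO1 share lay within the WT range, so the high level was found in 1 of the 2 KO samples. Igkv3-3, the closest relative shown above, had 0 to 3 counts in any library.

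Several other members were also high in 1 sample, and these samples were of both genotypes. Among the 57 members with 100 or more counts, 6 had a share in 1 sample at least 5 times that in the next sample, and these were WT1, WT2 (2 genes), WT3, KO1, and KO2 with KO3. At a ratio of 2 or more there were 14 members, 3 in WT1, 2 in WT2, 4 in WT3, 3 in KO1 and 2 in KO2 with KO3. These ratios chose the genes described next, and they are given without a test.

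Igkv1-99 (ENSMUSG00000076525, chr6:68541644-68542422) had 609 counts in KO1 and 3 to 7 in every other library. Its share of KO1 was 11.0% (Wilson interval 10.2% to 11.8%), 138.2 times that of the next sample. Igkv12-89 was also highest in KO1, with 611 counts (11.0%) against 85 to 187 in the other libraries, a ratio to the next sample of 4.92. Igkv1-99 and its closest relative, Igkv1-122, differ at 47 bases of the V exon, and Igkv1-122 had 7 counts in KO1.

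In WT2, 2 kappa genes were high together. Igkv12-41 (ENSMUSG00000095007, chr6:69858420-69858884) had 1204 counts in WT2, 14.4% of its light chain V counts (Wilson interval 13.7% to 15.2%), and 28 to 42 counts in each other library. Igkv3-2 (ENSMUSG00000095351, chr6:70698449-70699067) had 1055 counts in WT2, or 12.6% (11.9% to 13.4%), against 116 and 92 in WT1 and WT3 and 25, 33 and 27 in KO1 to KO3. Igkv12-44, which shares 95.6% of the Igkv12-41 V exon, had 74 counts in WT2 and 438 in WT1, so the pair did not move together.

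The remaining pair of one-sample genes was less abundant. Igkv4-86 had 233 counts in WT3, or 2.99% (Wilson interval 2.63% to 3.39%), and 13 to 26 in the other libraries. Igkv10-95 had 103 counts in WT1, or 1.54% (1.28% to 1.87%), and 2 to 16 elsewhere. Igkv10-94, its closest relative, had 45, 39 and 41 counts across WT1 to WT3 and 27, 67 and 68 across KO1 to KO3, with no peak in WT1.

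**Figure D3:**
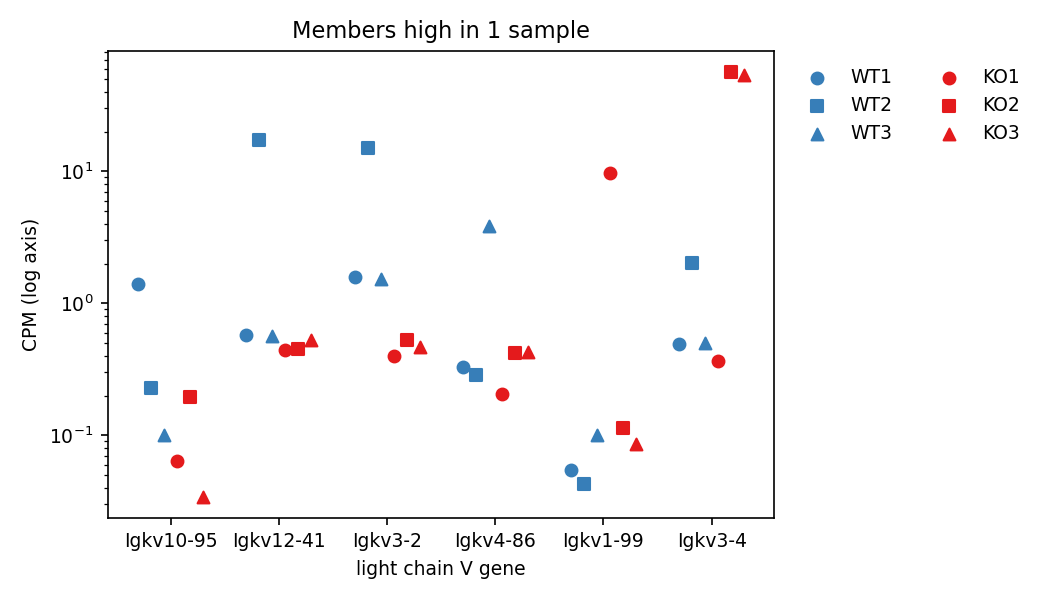
CPM (log axis) in each of the 6 libraries for the 6 members whose share in 1 sample was at least 5 times that in the next. Blue symbols are WT and red are KO; 1 sample stands far above the rest for each gene, and for Igkv3-4 these are KO2 and KO3.

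Other members were used in all libraries. Igkv5-39 had 763, 217 and 801 counts across WT1 to WT3 and 313, 509 and 491 across KO1 to KO3, so its share ran from 2.60% in WT2 to 11.4% in WT1. Igkv1-117 was the steadiest of the 12 leading members, at 3.60%, 2.56% and 3.18% in WT and 2.74%, 2.63% and 2.63% in KO. Igkv10-96 stayed between 1.53% and 4.99%. Igkv12-44 was highest in WT1, at 6.57%, and 0.887% to 2.36% elsewhere.

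The 5-sample mean share, which counts KO2 and KO3 once, was highest for Igkv3-4 (9.50%), followed by Igkv5-39 (7.32%), Iglv1 (7.24%) and Igkv14-126 (4.93%). The rank of Igkv3-4 rested on 1 sample: without KO2 and KO3, a setting added after seeing the data, its mean share over the other 4 samples was 0.760%, rank 33, and Igkv5-39 led with 7.49%. These 4 genes kept their ranks when counts were divided by exon length, which runs from 338 to 501 bases among the members. Neighbours in this order did not differ beyond their spread: the SD among WT libraries was 4.80 percentage points for Igkv5-39 and 1.25 for Iglv1.

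The Iglv members, the V genes of the lambda chain, lie on chr16:19085017-19260859, all on the minus strand. They held 9.55%, 7.61% and 10.8% of light chain V counts in WT1 to WT3 and 14.7%, 9.33% and 9.09% in KO1 to KO3. KO1 was the highest and the other KO libraries lay within the WT range, so the genotypes overlapped (9.31% ± 1.60 in WT, SD, n = 3, and 11.9% ± 3.86 in KO, SD, n = 2). The overlap depended on Igkv3-4 in KO2 and KO3. Without that gene the lambda shares were 9.60%, 7.74% and 10.8% in WT and 14.7%, 16.9% and 16.3% in KO, which did not overlap. Igkv3-4 is high in KO2 and KO3 only, so leaving it out shrinks the total of those libraries and raises their lambda share. Genes high in WT2 or KO1 were kept, so this separation is no test of the lambda level. The lambda constant gene Iglc2, given below, overlapped between the genotypes. In KO1, Iglv1 alone gave 12.5%, with 691 counts against 345 to 561 in the other libraries.

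The 3 Iglv genes did not move together. Iglv2 had 141, 105 and 200 counts across WT1 to WT3 and 71, 181 and 150 across KO1 to KO3, and its genotypes overlapped. Iglv3 had 151, 120 and 80 counts across WT1 to WT3 and 51, 39 and 46 across KO1 to KO3, and no KO value reached a WT value. Iglv1 was at 4.71, 5.84 and 9.36 CPM in WT and 11.0, 8.27 and 7.80 CPM in KO, with overlap.

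Members of one V family, which are related in sequence, did not share one pattern. The 20 Igkv4 members, the largest family, together held only 5.80% to 13.3% of a library. The 7 Igkv3 members held 3.78%, 15.2% and 3.08% in WT and 1.98%, 45.9% and 45.4% in KO, a pattern set by Igkv3-2 in WT2 and Igkv3-4 in KO2 and KO3. The 6 Igkv12 members held 10.4%, 19.4% and 4.37% in WT and 15.8%, 5.33% and 5.18% in KO.

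The 78 Igkv members with coordinates lay in 3.15 Mb, chr6:67555497-70704177, upstream of the J segments, with 31 on the plus strand and 47 on the minus strand. A V gene on the plus strand here has the same orientation as the J segments. The one-sample genes were spread along this region: Igkv3-2 and Igkv3-4 lay 23.5 and 50.2 kb from Igkj1, Igkv12-41 863.7 kb and Igkv1-99 2180 kb. Plus-strand genes held 40.7%, 51.5% and 45.0% of Igkv counts in WT and 38.0%, 68.2% and 67.4% in KO. With all members the genotypes overlapped. Without Igkv3-4 the values were 40.3%, 50.5% and 44.8% in WT and 37.7%, 36.9% and 36.4% in KO, with no overlap. Igkv3-4 is a plus-strand gene high in KO2 and KO3 only, whereas the plus-strand Igkv3-2, high in WT2, was kept. The values without Igkv3-4 are therefore no test of genotype.

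**Figure D4:**
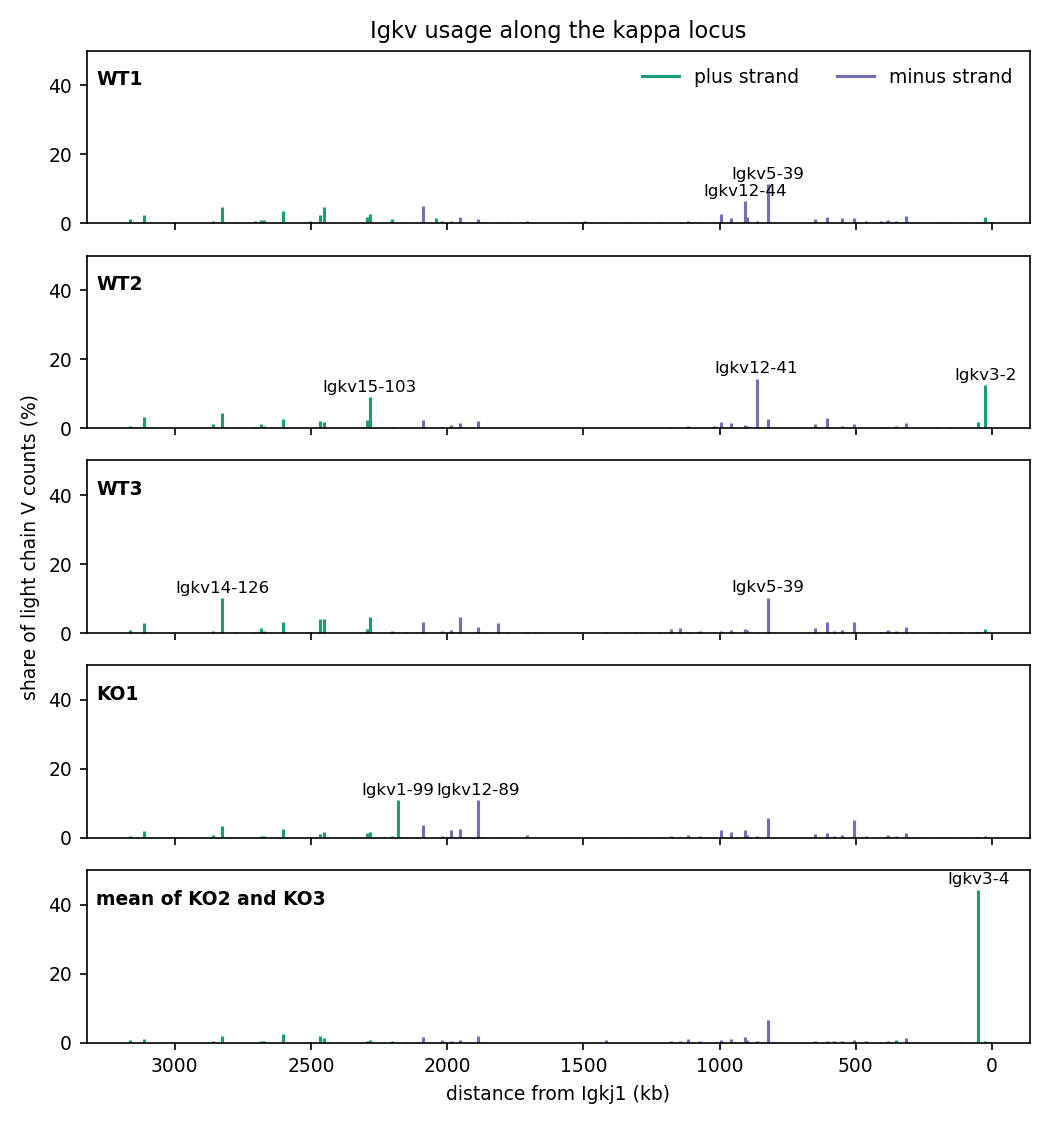
Share of light chain V counts (%) of each Igkv member against its distance from Igkj1 (kb), one panel per library, with KO2 and KO3 averaged. Line colour gives the strand and the names mark high members; the tallest line is Igkv5-39 (821.6 kb) in WT1 and WT3, Igkv12-41 (863.7 kb) in WT2, Igkv12-89 (1887 kb) with Igkv1-99 (2180 kb) close to it in KO1, and Igkv3-4 (50.2 kb) in KO2 and KO3.

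KO was then compared with WT over the 18660 genes that passed the filter on low counts, with edgeR's quasi-likelihood test. Of the 82 members, 71 were tested and 0 were called (adjusted p up to 0.05), against 2.28% of all tested genes, 1.38% higher and 0.906% lower in KO. The other 11 were too low for the filter, among them Igkv1-99, which is high in 1 sample only. An unadjusted p of at most 0.05 was found for 14 of the 71 (19.7%), against 27.3% of all tested genes.

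Other fits called some members. With DESeq2, 11 members were called, 10 lower and 1 higher (Igkv3-4), beside 20.9% of all genes, 10.4% lower and 10.6% higher. With 6 separate libraries, 8 of 67 tested members were called, all lower (among them Igkv1-110, Igkv1-122, Igkv15-103, Igkv2-112, Igkv6-32, Igkv8-30 and Iglv3), beside 18.9% of all genes, 9.07% lower and 9.81% higher. Without WT3 and KO1 the KO arm is 1 sample (KO2 with KO3), assumed to vary like WT1 and WT2, and a member could pass the filter through that sample alone. In that setting 8 of 79 were called, 6 lower and 2 higher (Igkv3-4 and Igkv4-68, both high in KO2 and KO3), beside 11.9% of all genes, 5.88% lower and 6.01% higher. These calls compare 1 KO sample with WT and do not speak to the spread among KO mice.

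The direction of the differences was uneven. With no filter, 66 of the 82 members (80.5%) had a lower estimate in KO and 16 a higher one, with a median log2 fold change of -0.46, whereas 48.6% of 26985 genes were lower, with a median of 0.01. Among the tested members, 17 were lower in each KO library than in any WT library (23.9%, against 20.7% of all tested genes) and 0 were higher in each (against 20.1%).

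Iglv3 had the smallest adjusted p of the members. It was at 1.70 ± 0.364 CPM in WT (SD, n = 3) and 0.760 ± 0.0724 CPM in KO (SD, n = 2), with a log2 fold change of -1.16 (SE 0.249, edgeR adjusted p = 0.0686), which did not pass. Igkv15-103 had 186, 747 and 355 counts across WT1 to WT3 and 94, 54 and 64 across KO1 to KO3, without overlap, and a log2 fold change of -2.36 (SE 0.661, edgeR adjusted p = 0.104). Igkv1-122 had 54, 21 and 29 counts across WT1 to WT3 and 7, 11 and 9 across KO1 to KO3, also without overlap (log2 fold change -1.83, SE 0.494, edgeR adjusted p = 0.098). Igkv8-30 had 119, 250 and 244 counts across WT1 to WT3 and 85, 44 and 33 across KO1 to KO3, likewise without overlap (log2 fold change -1.64, SE 0.534, edgeR adjusted p = 0.135).

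The 4 tested members with the most extreme estimates were all high in 1 sample, and their errors were wide. Igkv3-4 had a log2 fold change of 4.81 with an SE of 1.83 (edgeR adjusted p = 0.175). Igkv3-2 and Igkv12-41 had -3.74 (SE 1.33, adjusted p = 0.156) and -3.69 (SE 1.88, adjusted p = 0.277) in edgeR, and without WT2 these became -1.79 and -0.29. Igkv10-95 had -2.62 (SE 1.28, edgeR adjusted p = 0.262). Igkv12-89 had 1.57 (SE 0.633, edgeR adjusted p = 0.192), which became 0.31 without KO1. Igkv14-126 and Igkv1-110, which were lower in every KO library, had -1.45 (SE 0.553, adjusted p = 0.175) and -1.33 (SE 0.418, adjusted p = 0.126) in edgeR, and Igkv14-126 became -0.80 without WT3. Leaving out 1 library also moved Igkv3-4 to 5.81 (without WT2) or 5.78 (without KO1), Igkv10-95 to -3.52 (without KO2) and Igkv8-30 to -2.27 (without KO1).

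**Figure D5:**
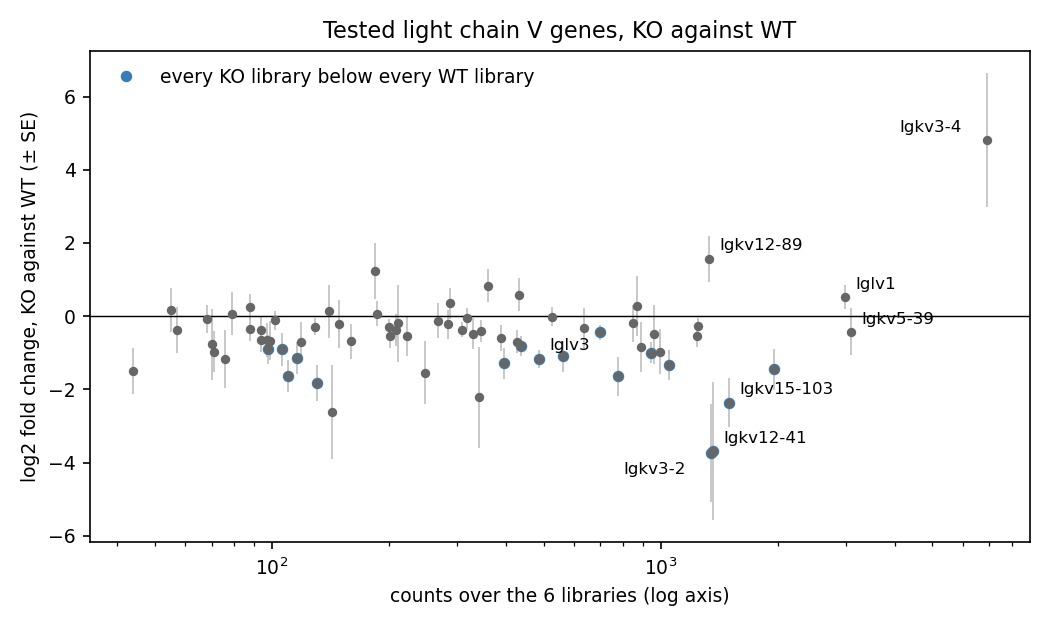
Log2 fold change, KO against WT, with its SE as bars, for the 71 tested members against their counts over the 6 libraries (log axis). Blue points are the 17 members that are lower in each KO library than in any WT library; none of the 71 passed the threshold on adjusted p, and Igkv3-4 is the highest point at 4.81.

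The partner genes of the light chain were measured beside the V genes. Igkc, the kappa constant gene, was at 154.5, 198.5 and 191.2 CPM in WT and 148.9, 250.4 and 243.9 CPM in KO, with overlap (log2 fold change 0.13, SE 0.241, edgeR adjusted p = 0.765). Iglc2, a lambda constant gene, was at 20.3, 18.3 and 19.7 CPM in WT and 16.0, 21.1 and 22.2 CPM in KO, also with overlap. Its log2 fold change was -0.04 (SE 0.15, edgeR adjusted p = 0.884). The 5 Igkj genes, the kappa J segments, all had lower estimates in KO, from -0.35 to -1.12, and none was called (edgeR adjusted p from 0.137 to 0.334). The Igkv members gave 53.4, 55.4 and 60.7 counts per 100 Igkc counts in WT and 50.5, 45.9 and 45.7 in KO, without overlap.

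Marker lists of the cells that make light chains were read beside these values. Of the 15 B cell genes tested, 14 had a lower estimate in KO, against 47.8% of all tested genes, and 12 were lower in each KO library than in any WT library, against 20.7%. They summed to 535.8, 495.1 and 466.6 CPM in WT and 396.2, 409.8 and 413.4 CPM in KO, none was at 0 in all libraries, and none was called with edgeR. The exception was Pax5, the factor that maintains B cell identity, at 11.5, 9.04 and 8.79 CPM in WT and 12.8, 11.8 and 11.7 CPM in KO, higher in each KO library than in any WT library (log2 fold change 0.33, SE 0.151, edgeR adjusted p = 0.235). Of the 13 plasma cell genes, 10 had a higher estimate in KO. Among these, 5 were higher in each KO library than in any WT library (against 20.1% of all tested genes): Sdc1, Xbp1, Edem2, Creld2 and Fkbp11. Mzb1, Derl3, Tnfrsf17, Prdm1 and Igj overlapped between the genotypes. Only Sdc1, which epithelial cells also express, was called (edgeR adjusted p = 0.0487, against 1.38% of all tested genes called higher). The list summed to 581.3, 615.8 and 615.3 CPM in WT and 683.3, 736.8 and 728.6 CPM in KO, and without Sdc1 to 390.4, 414.8 and 406.0 CPM in WT and 416.1, 478.6 and 472.1 CPM in KO. Xbp1 alone was at 192.8, 199.6 and 194.0 CPM in WT and 205.7, 216.3 and 214.3 CPM in KO. The transcription factor Irf4, the surface receptor Slamf7 and the B cell coactivator Pou2af1 went the other way, each lower in all KO libraries than in any WT library, with log2 fold changes of -0.58, -0.59 and -0.31 (edgeR adjusted p = 0.0506, 0.127 and 0.151), and were not called. These 3 are 23.1% of the list, against 20.7% of all tested genes. Adipocyte genes differed between the genotypes as well: all 11 were lower in each KO library than in any WT library (against 20.7% of all tested genes), 4 were called lower with edgeR (against 0.906%), and they summed to 956.8 to 1563 CPM in WT and 215.6 to 395.4 CPM in KO. The 12 T cell genes, none of them called, summed to 62.8 to 84.3 CPM in WT and 83.6 to 89.8 CPM in KO. The part of the B cell, plasma cell, adipocyte, squamous, erythroid and lung epithelial genes in the values of the members was not tested.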

How the data were processed

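The deposited table holds raw counts per gene and library, made by the authors from mouse lung reads. The submitters' processing notes list Trimmomatic 0.36, STAR 2.5.3a, Picard 2.9.0 and HTSeq 0.6.0 and the build mm10 (GRCm38). The annotation release and strand setting are not given in the sources used here. Reads of rearranged or mutated V genes, and reads that fit several V genes, may be lost or misplaced in such counts.

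The members and the gene lists were chosen with earlier results of these data known. Usage is a member's share of the counts of all members in a library. Wilson intervals (95%) cover counting error alone, as PCR duplicates are not separate molecules. CPM uses library sizes scaled by TMM. KO2 and KO3 were summed in the fits and averaged in means, because earlier work on these data had found them near counting noise; keeping 6 separate libraries was an alternative. Counts were tested with edgeR 4.0.16 in R 4.3.3 (filterByExpr, TMM, quasi-likelihood test, two-sided, Benjamini-Hochberg adjustment over all tested genes, threshold 0.05). The script was tested on simulated data. DESeq2 1.42.0, other scalings and filters, each library left out and a replicate block were alternatives.

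Named genes are the 12 members with the highest mean share, any called member, the 5 largest falls and rises without overlap, the 6 with the largest ratio of their first to their second sample, the Iglv genes, those at the count minimum, and the light chain constant genes. Igkv4-73 carries the identifier that GENCODE M21 names Igkv4-51, and Igkv2-109 has no entry there. Promoter sequences of the members were not analysed here.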

Additional observations from a re-analysis of the deposited data

How the results depend on the processing

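No member was called under other scalings, no filter or at least 10 counts in every library. Over all genes, 306 of 18660 were called with library size alone and 428 of 18660 with DESeq2 size factors. With no filter 412 of 26985 were called, and 937 of 16919 with at least 10 counts in every library. At such shares, 0 calls among so few members says little about them. None was called with a gene length offset or with 1 library left out either, but where such settings called few or no genes in all, as given next, this says nothing about the members. The members called were 8 with 6 separate libraries, 11 with DESeq2 and 8 without WT3 and KO1. In the last of these, as without KO1 alone, KO is 1 sample, which is assumed to vary like the WT libraries. The setting without WT3 and KO1 and the length offset were chosen after seeing the data. Calls over all genes moved from 426 to 3402 with 6 separate libraries, 3908 with DESeq2, 937 with at least 10 counts in every library, 2256 without WT3 and KO1 and 4 with the length offset, and ranged from 0 to 418 when 1 library was left out. They were 0 without any one WT library and 17 without KO1.

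The replicate numbers did not pair the libraries. Deviations from the group means correlated at -0.48 for WT1 and KO1, 0.564 for WT2 and KO2 and -0.653 for WT3 and KO3. With the replicate block, 1157 genes and 0 members were called, against 3402 and 8 without the block in the same 6 libraries.

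The difference of KO from WT in summed level was -6.94 CPM, but -33.8 without Igkv3-4 and 19.7 without WT3 and KO1, and -18.1 to 11.3 when 1 library was left out. The difference in lambda share was 2.62 percentage points, 6.26 without Igkv3-4, and -0.106 to 3.36 when 1 library was left out. The difference in effective number was -13.4, but -0.689 without Igkv3-4 and -2.96 when the leading gene of each library was left out. It was -21.9 without WT3 and KO1, and -21.8 to -10.5 when 1 library was left out. Leaving out Igkv3-4 acts almost only on KO2 and KO3, so the differences in level, lambda share and effective number without it are no test of genotype. The log2 fold change turned positive for Igkv5-39 (0.29), Igkv1-117 (0.05), Igkv4-86 (0.46) and Iglv2 (0.68) without WT3 and KO1, for Igkv12-44 (0.70, range -0.89 to 0.70 when 1 library was left out) without WT1, for Igkv4-86 (0.08, range -2.71 to 0.08) and Iglv2 (0.19) without WT3, and for Iglv2 (0.29, range -0.44 to 0.29) without KO1. The cause of these moves was not tested. Of 266 alternative values over 18 named members, 240 kept their direction and side of the threshold. Another 18 passed it newly, some of them without WT3 and KO1, where KO is 1 sample. None of these members was called in the main fit. Where a setting called few or no genes in all, staying on that side was fixed in advance, so the 240 do not measure stability.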

Other observations

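Among heavy chain constant genes, Ighg2c, the constant gene of the IgG2c class, had 105, 219 and 79 counts across WT1 to WT3 and 229 in KO1, but 910 in KO2 and 862 in KO3, the libraries high in Igkv3-4. Every KO library lay above every WT library, and the log2 fold change was 2.24 (SE 0.691, edgeR adjusted p = 0.122), which did not pass. Such a rise was seen in 1 of the 6 tested heavy chain constant genes, against 20.1% of all tested genes. The other IgG genes, Ighg1, Ighg2b and Ighg3, overlapped, with log2 fold changes of 0.14, -0.21 and 0.62 (edgeR adjusted p = 0.947, 0.896 and 0.6). Ighm and Igha, the constant genes of IgM and IgA, had log2 fold changes of 0.08 each (edgeR adjusted p = 0.869 and 0.939). Igj, the joining chain of polymeric antibody, had 1707, 2860 and 2464 counts across WT1 to WT3 and 1950, 4528 and 4078 across KO1 to KO3, with overlap (log2 fold change 0.56, SE 0.425), and was not called.

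The lymphocyte recombination gene Rag1 had 111, 18 and 18 counts across WT1 to WT3 and 2, 32 and 36 across KO1 to KO3, and Dntt, the enzyme that adds bases at V(D)J joins, had 88, 12 and 18 and 14, 36 and 20. WT1 was the highest library for both. Of the 7 tested genes in the recombination and surrogate light chain list, 4 had a higher estimate in KO and 3 a lower one, and none was called. In that list, Vpreb1 and Vpreb3, 2 genes, were higher in each KO library than in any WT library (against 20.1% of all tested genes). Their log2 fold changes were 1.12 and 0.40 (edgeR adjusted p = 0.0717 and 0.181). Igkv8-26, which was under the count minimum, had 14 of its 15 counts in KO1.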
